A study of Danio rerio with 3 samples.

Results

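The 3 zebrafish genes described here encode the Ras proteins H-Ras, N-Ras and K-Ras. They were chosen by their Ensembl identifiers, ENSDARG00000005651 for hras, ENSDARG00000038225 for nras and ENSDARG00000010844 for kras, and are 3 of the 27882 genes in the deposited tables. The libraries, 1 for each of 3 genotypes, were made from messenger RNA of whole AB larvae at 3 days post-fertilization. HRAS larvae carried the driver Tg(fli1ep:GAL4FF)ubs3, in which an endothelial fli1 promoter drives GAL4, together with Tg(UAS:eGFP-HRASV12)io006, which places oncogenic HRAS fused to eGFP under GAL4 control. NICD larvae combined this driver with tg(UAS:NICD)kca3, a transgene for the active intracellular part of a Notch receptor. Control larvae were wild type, and the labels name no driver for them, so the driver and either transgene cannot be told apart against the control. The sources used here do not give the number of larvae or clutches behind a library.

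Ras proteins are small GTPases at the inner face of the plasma membrane. Exchange factors such as Sos load them with GTP after a growth factor receptor is engaged, and GTPase-activating proteins such as neurofibromin return them to the GDP-bound state. Loaded Ras binds Raf kinases, which start the cascade through MEK to ERK, and phosphoinositide 3-kinases. The V12 substitution of the transgene blocks GTP hydrolysis and keeps the protein loaded. No change to an endogenous Ras gene is listed for any group. Ras genes are transcribed in many tissues, and RNA of whole larvae cannot tell fewer cells of a type from less RNA per cell.

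The HRAS library held 41105619 corrected reads, the NICD library 21944303 and the control library 26384466. Corrected reads are the authors' count of unique reads plus a share of the non-unique reads of a gene. Each fold below is a ratio of corrected reads scaled for depth, and the bracketed range after it is a 95% interval for counting error only. Without a replicate no p-value was computed, and each comparison is between these libraries rather than between the conditions. Markers of skeletal muscle, lens, liver, red cells, neurons and endothelium were detected in all 3 libraries. The RPKM of the 13 endothelial marker genes summed to 257 in HRAS and 70.8 in NICD, against 88.8 in the control.

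Against the control the 3 Ras genes had folds between 0.875 and 1.08 in both transgenic libraries. None of the 3 was called higher or lower in any comparison under the size rule, which asks for at least 2-fold, at least 50 reads in both libraries summed and an interval without 1. Among all tested genes the rule called 10.2% of 20873 in HRAS against control, 6.09% as higher and 4.14% as lower. It called 6.68% of 20061 in NICD against control, 3.56% as higher and 3.12% as lower. In the comparison of HRAS with NICD it called 11.3% of 20856, 5.15% as higher and 6.19% as lower.

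The hras gene, an endogenous counterpart of the oncogene in the transgene, had 1542 corrected reads in the HRAS library and 766 in the NICD library, against 907 in the control. In RPKM, the authors' read count per length of transcript and depth of library, these were levels of 13.5 in HRAS and 12.6 in NICD, against 12.4 in the control. The 3 levels lay close together, with HRAS the highest. Its fold was 1.08 [0.999 to 1.18] in HRAS against control and 1.004 [0.911 to 1.11] in NICD against control. Between HRAS and NICD it was 1.08 [0.990 to 1.18], so the interval held 1 in all 3 comparisons with this scaling. With total counts the fold in HRAS against control was 1.09 [1.005 to 1.19], and with upper quartile factors that in HRAS against NICD was 1.09 with a lower bound of 1.0001, so that both intervals then left out 1.

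For nras, which encodes N-Ras, 1653 corrected reads were counted in HRAS and 824 in NICD, against 982 in the control. Its RPKM was 15.3 in HRAS and 14.2 in NICD, against 14.1 in the control. By RPKM the HRAS library was the highest, as for hras, and NICD and control lay close together. Its fold was 1.07 [0.992 to 1.16] in HRAS against control, 0.998 [0.908 to 1.096] in NICD against control and 1.08 [0.990 to 1.17] in HRAS against NICD.

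The remaining gene, kras, encodes K-Ras and had 1211 corrected reads in HRAS and 593 in NICD, against 806 in the control. Its RPKM was 30.3 in HRAS and 27.8 in NICD, against 31.4 in the control, so that here the control was the highest library and NICD the lowest. The fold of kras was 0.959 [0.876 to 1.05] in HRAS against control and 1.096 [0.993 to 1.21] in HRAS against NICD. Against control it was 0.875 [0.785 to 0.974] in NICD, the only one of the 9 folds whose interval left out 1 with this scaling. With upper quartile factors kras in HRAS against NICD did so too, at 1.11 [1.003 to 1.22], besides the cases of hras given above. Such an interval was found for 56.6% of all genes tested in NICD against control, 62.3% in HRAS against control and 63.2% in HRAS against NICD.

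**Figure D1:**
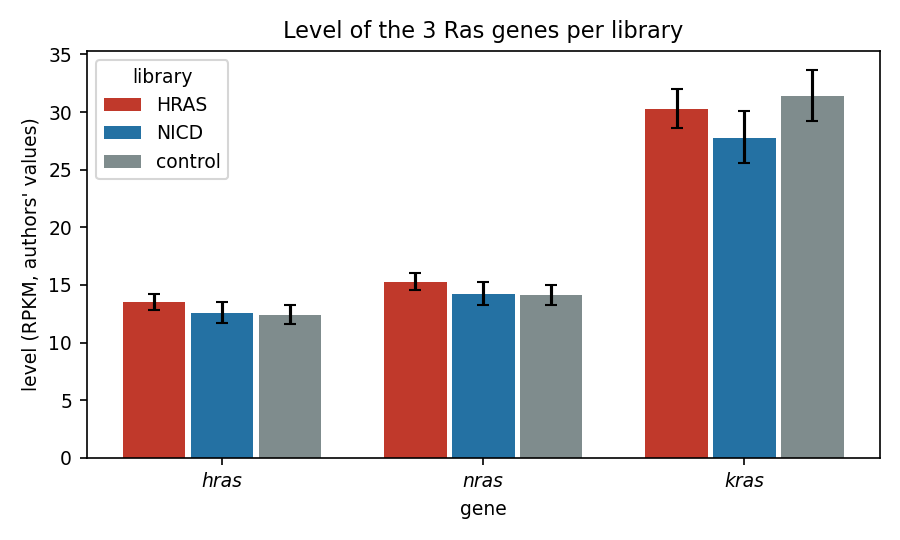
Level of hras, nras and kras in RPKM (y axis, from 0) in the HRAS, NICD and control libraries, 1 library each, with exact Poisson 95% intervals for counting error as error bars. kras stands at 27.8 to 31.4 RPKM in all libraries, and hras and nras at 12.4 to 15.3 RPKM.

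Set among all genes, these were small ratios. In HRAS against control 77.8% of tested genes had a larger absolute log2 ratio than hras, 80.4% a larger one than nras and 88.4% a larger one than kras. For NICD against control, 98.6% of tested genes exceeded hras in this measure, 99.3% exceeded nras and 63.6% exceeded kras. All 9 log2 ratios of the Ras genes lay between the 25th and 75th percentile of the tested genes. The central part of that distribution ran from -0.28 to 0.31 in HRAS against control, from -0.23 to 0.32 in NICD against control and from -0.33 to 0.31 in HRAS against NICD. Both comparisons with the control use the same control library. The tested genes include those with as few as 50 reads in both libraries summed, and were not matched to the Ras genes by read count.

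**Figure D2:**
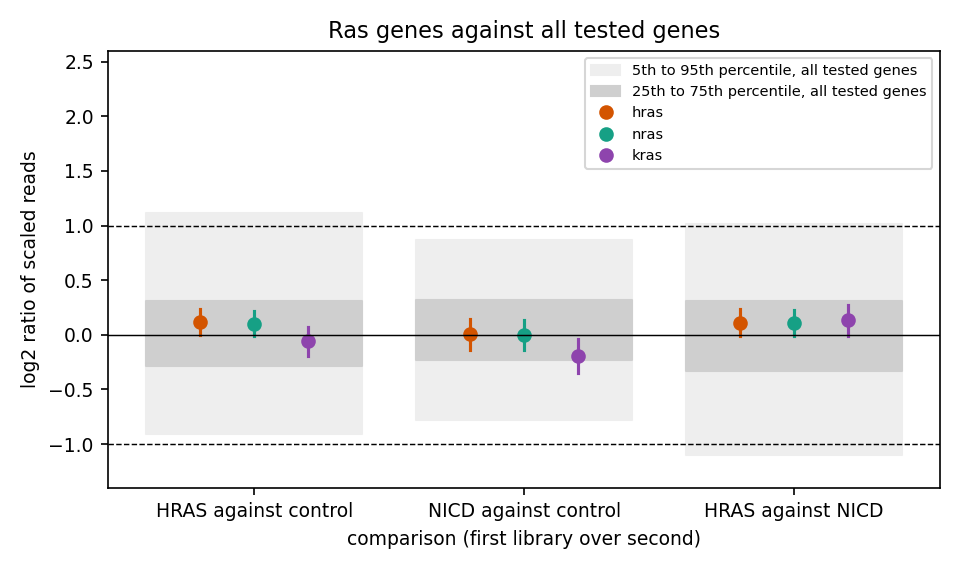
Log2 ratio of scaled corrected reads (y axis) of the Ras genes in each comparison (x axis, the first library over the second), with 95% counting intervals as lines, over grey bands of all tested genes and dashed lines at 2-fold. All 9 points lie in the inner band, and kras in NICD against control is the lowest at -0.19.

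The ratio of 1 Ras gene to another within a library does not depend on how libraries are scaled. The hras to nras ratio of corrected reads was 0.933 in HRAS and 0.930 in NICD, against 0.924 in the control. These ratios nearly coincided: HRAS over control gave 1.01 [0.900 to 1.13], and NICD over control gave 1.01 [0.879 to 1.15]. The kras to hras ratio was 0.785 in HRAS and 0.774 in NICD, against 0.889 in the control. Both transgenic libraries thus held fewer kras reads for each hras read than the control did, with 0.884 [0.782 to 0.999] for HRAS over control and 0.871 [0.753 to 1.01] for NICD over control. On unique reads these values were 0.907 [0.788 to 1.04] for HRAS and 0.843 [0.716 to 0.994] for NICD, so which interval left out 1 turned on the reads counted. The kras to nras ratio was 0.733 in HRAS and 0.720 in NICD, against 0.821 in the control, and the intervals held 1 for HRAS over control, at 0.893 [0.791 to 1.01], and for NICD over control, at 0.877 [0.760 to 1.01]. Between HRAS and NICD the kras to hras ratio differed by a factor of 1.01 [0.888 to 1.16].

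Whether the mapping counted transcripts of the HRAS transgene under endogenous hras cannot be read from the sources used here. Had hras moved with nras in the HRAS library, 1527 corrected reads would have been counted there, and 1542 were. The same calculation gave 761 reads for the NICD library, where no HRAS transgene is present, and 766 were counted. The hras counts therefore stood 15.2 reads above the nras-based value in HRAS and 4.93 reads above it in NICD, both inside the counting intervals of the ratio given above. That hras would have moved with nras was assumed and was not tested. Because the mapping of transgene transcripts is not known, the level of hras does not check the genotype label of the HRAS library in either direction.

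Almost all reads of nras and kras were unique, so few or none were shared with another gene. The nras gene has 1 transcript model, of 2636 bases, and all of its reads were unique in all 3 libraries. The kras gene has 1 model of 973 bases, with 1 non-unique read in NICD and 0 in HRAS and in the control. The hras gene has 2 models, the longest of 2775 bases, and only part of its reads were unique: 938 in HRAS, 493 in NICD and 566 in the control. These were 60.8% of its corrected reads in HRAS and 64.4% in NICD, against 62.4% in the control. Of the non-unique reads of hras exactly 50% entered the corrected count in each library, namely 604 of 1208 in HRAS, 273 of 546 in NICD and 341 of 682 in the control. Such a share, within 1 read, was found in 64.7% of genes with 2 models and at least 100 non-unique reads in HRAS, in 65.6% in NICD and in 65.7% in the control. Among genes with 1 model it was found in 1.06% in HRAS, 1.15% in NICD and 1.30% in the control. Whether the non-unique reads of hras were shared between its own 2 models or with another gene was not tested. On unique reads alone the fold of hras was 1.06 [0.952 to 1.18] in HRAS against control and 1.04 [0.916 to 1.17] in NICD against control.

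**Figure D3:**
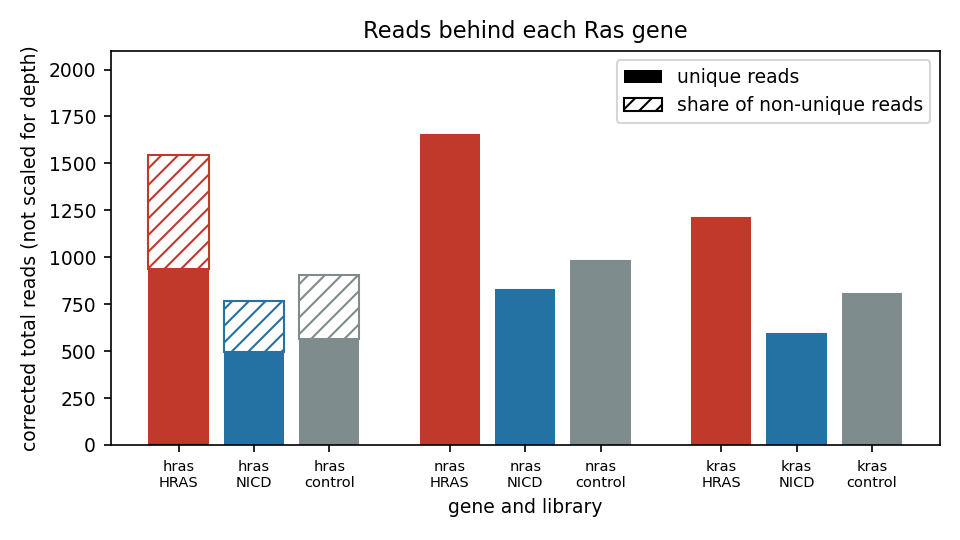
Corrected total reads (y axis, not scaled for depth) behind each Ras gene in each library (x axis), split into unique reads (filled) and the share of non-unique reads that the authors added (hatched). A hatched part is visible for hras alone, with 604 reads in HRAS, 273 in NICD and 341 in the control.

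The order of the genes depended on whether length was taken into account. By corrected reads the order was nras, hras, kras in every library, while by RPKM, which divides by transcript length, it was kras, nras, hras. The RPKM of kras was 2.24 times that of hras in HRAS and 2.21 times in NICD, against 2.53 times in the control. The RPKM order of kras over the others depends on the length of its transcript model. With the kras reads held as counted, a model of 1931 bases in HRAS, 1897 in NICD or 2164 in the control would have put kras level with nras. A longer model could also have collected more reads, and this was not tested. Counting intervals of kras lay apart from those of both other genes in all libraries. The RPKM intervals of nras and hras overlapped in NICD, at 13.3 to 15.3 for nras and 11.7 to 13.5 for hras, but lay apart in HRAS, at 14.5 to 16.01 for nras and 12.9 to 14.2 for hras. In the control they ran from 13.25 to 15.0 for nras and from 11.6 to 13.22 for hras, and lay narrowly apart. Of the summed RPKM of these 3 Ras genes, kras made up 51.3% in HRAS and 50.9% in NICD, against 54.2% in the control. The sum itself was 59.1 RPKM in HRAS and 54.6 in NICD, against 57.9 in the control. A second identifier named HRAS is not among the genes counted, so the sum may lack an hras copy. All 3 genes were among the better expressed: kras stood above 91.6% of the genes with reads in HRAS, 90.9% in NICD and 91.9% in the control, and hras above 79.9% in HRAS, 78.1% in NICD and 78.4% in the control.

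Genes with a like pattern were sought among 5948 other named genes with at least 500 corrected reads in every library, by the Euclidean distance between log2 scaled reads centred over the 3 libraries. The nearest to hras were usp40, prdx5 and TMEM198, at distances of 0.0044 to 0.0067. The nearest to nras were TMEM198, AIFM2 and PTPN11, at distances of 0.0036 to 0.0067. PTPN11, which encodes the phosphatase SHP2 that acts upstream of Ras, had 2568 corrected reads in HRAS and 1288 in NICD, against 1527 in the control. The nearest to kras were TGFBI, CHCHD2 and NHP2, at 0.0017 to 0.0061. Between hras and nras the distance was 0.0103, with 8 of the other genes nearer to hras, whereas kras lay 0.155 from hras, with 1291 genes nearer to hras than kras was. No counting interval was computed for these distances. That of the hras fold in HRAS against control, 0.999 to 1.18, is on the log2 scale much wider than the distances of the nearest genes. Which genes rank nearest can therefore turn on counting error. With 3 libraries a distance below 0.1, a limit much wider than the distances of the nearest genes, was common: 578 genes lay within it of hras, 598 of nras and 584 of kras.

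Of 32 identifiers of other GTPases of the Ras family 31 were tested, and in HRAS against control 2 were called higher and 1 lower, or 9.68% beside 10.2% of all genes, with a median log2 ratio of 0.06 beside 0.0030 for all genes tested. RRAS, which encodes R-Ras, had a fold of 1.24 [1.15 to 1.34] in HRAS and 1.13 [1.03 to 1.23] in NICD against control, with few of its reads unique. RRAS2, which encodes the related TC21, had nearly the same fold in HRAS, at 1.29 [1.19 to 1.40], as in NICD, at 1.27 [1.16 to 1.38], and 1.02 [0.944 to 1.101] in HRAS against NICD. One of 2 identifiers named MRAS, for M-Ras, had 701 corrected reads in HRAS and 126 in NICD, against 133 in the control. The HRAS library stood apart, with a fold of 3.35 [2.79 to 4.08] against control, while NICD against control gave 1.13 [0.876 to 1.45]. The other MRAS identifier, ENSDARG00000062865, had a fold of 1.097 [1.002 to 1.20] in HRAS against control. The gene rasd1, which encodes a Ras-related protein induced by dexamethasone in mammals, was 2.07-fold higher [1.84 to 2.33] in HRAS, with 1179 corrected reads in HRAS and 441 in NICD, against 364 in the control. RAP2A, of the Rap branch, was the member called lower and had 49 reads in HRAS and 72 in NICD, against 81 in the control. The copy rap2aa, with 693 reads in HRAS, was not called, at 1.03 [0.915 to 1.17] in HRAS against control. The sole call in NICD against control, 3.23% of the list beside 6.68% of all genes, was rasl10a, at 3.50-fold [2.03 to 6.59] on 51 reads in NICD and 17 in the control. The HRAS library had 54 reads of it and a fold of 1.99 [1.16 to 3.73] against control, just under the limit. In HRAS against NICD the MRAS identifier stood at 2.98 [2.47 to 3.64], RALB, of the Ral branch that acts downstream of Ras, at 2.12 [1.86 to 2.41] and RAP2A at 0.366 [0.249 to 0.532], and these 3 calls were 9.68% of the list beside 11.3% of all genes. RAP2A and rasl10a are named after their values were seen, since both had fewer than 100 reads.

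Exchange factors, which load Ras, were listed together with adaptors and other genes upstream of Ras. Of the 19 tested members of this list 1 was called higher and 1 lower in HRAS against control, or 10.5% beside 10.2% of all genes. None was called in NICD against control, beside 6.68% of all genes. The adaptor gene shc2 was 2.11-fold higher [1.59 to 2.86], on 206 reads in HRAS, 22 of them unique, and 62 in the control, 9 of them unique, too few to be tested on unique reads alone. It was not called in NICD against control, at 1.70 [1.22 to 2.40] on 89 reads in NICD, nor in HRAS against NICD, at 1.24 [0.964 to 1.61]. An identifier named RASGRF2, an exchange factor of neurons in mammals, stood at 0.473 [0.354 to 0.627], with 88 reads in HRAS and 124 in NICD, against 119 in the control. A second RASGRF2 identifier was not called, at 0.889 [0.657 to 1.21] in HRAS against control and 0.835 [0.611 to 1.15] in HRAS against NICD. SOS2 stood at 0.731 [0.678 to 0.789] in HRAS against control and at 1.07 [0.987 to 1.16] in NICD against control. PTPN11, named above for its pattern near that of nras, stood at 1.07 [1.01 to 1.14] in HRAS against control and 1.003 [0.931 to 1.08] in NICD against control. Its second copy, ptpn11b, stood at 0.831 [0.724 to 0.956] in HRAS and 0.597 [0.496 to 0.714] in NICD against control, and neither copy was called. Between HRAS and NICD 3 of 19 were lower and 0 higher, or 15.8%. Over all genes 11.3% were called in that comparison, 6.19% as lower. The 3 were RASGRF1 at 0.473 [0.398 to 0.561], the RASGRF2 identifier named first at 0.382 [0.287 to 0.505] and the adaptor gene FRS3 at 0.448 [0.388 to 0.517].

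GTPase-activating proteins and other inhibitors of Ras had 18 tested members. In HRAS against control 0 were called higher and 1 lower, or 5.56% beside 10.2% of all genes, of which 4.14% as lower. None was called in NICD against control, beside 6.68% of all genes, and the median log2 ratio was 0.35 beside 0.034 for all genes. The NF1 identifiers, which are named for neurofibromin, had folds of 0.952 [0.858 to 1.06] and 0.860 [0.796 to 0.929] in HRAS against control. The same identifiers in NICD against control stood at 1.43 [1.28 to 1.60] and 1.06 [0.974 to 1.16]. Against NICD 3 of 18 were lower in HRAS and 0 higher, or 16.7%. Over all genes 11.3% were called in that comparison, 6.19% as lower. Among the 3 that were lower in HRAS was SPRED3, of a family that restrains Raf activation, at 0.460 [0.401 to 0.526]. Neuron markers were lower in the same library: 3 marker genes summed to 168 RPKM in HRAS and 246 in NICD, against 228 in the control, and their part in these values was not tested.

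Of 26 tested effectors, 1 was called in HRAS against control, or 3.85% beside 10.2% of all genes, and 0 in NICD against control, beside 6.68%. The called gene, rasip1, encodes a Ras-interacting protein of endothelial cells and is also on the endothelial marker list. It had 3015 corrected reads in HRAS and 136 in NICD, against 167 in the control, all of them unique, and a fold of 11.5 [9.86 to 13.5] in HRAS against control. Of the Raf kinase genes, the entry to the ERK cascade, ARAF had a fold of 0.854 [0.803 to 0.909] and BRAF of 0.704 [0.621 to 0.798] in HRAS against control. ARAF in NICD against control stood at 0.977 [0.910 to 1.05] and BRAF at 1.39 [1.23 to 1.57]. Few of the ARAF and BRAF reads were unique, and none of these 4 folds passed the size rule. PIK3CG, a phosphoinositide 3-kinase subunit of leukocytes in mammals, had a fold of 2.15 [1.84 to 2.54] in HRAS against NICD and was called. In that comparison rasip1 was also called higher, at 11.9 [10.0 to 14.2], and RADIL, for a Rap-binding protein, lower, at 0.456 [0.344 to 0.604].

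Downstream of Raf, MAP2K1, which encodes MEK1, had a fold of 0.961 [0.887 to 1.04] in HRAS against control, MAP2K2, for MEK2, 0.963 [0.906 to 1.02], and MAPK3, for ERK1, 1.04 [0.995 to 1.095]. These 3 genes in NICD against control ran from 0.835 for MAP2K2 to 1.12 for MAPK3. Of 18 tested cascade members 1 was called higher in HRAS against control, an RPS6KA3 identifier for an ERK-activated ribosomal S6 kinase, at 2.94-fold [2.67 to 3.25], with 2325 reads in HRAS and 393 in NICD, against 504 in the control. A second RPS6KA3 identifier, with 3510 reads in HRAS, was not called, at 1.23 [1.17 to 1.31] in HRAS against control. One was called lower, the scaffold gene KSR2, at 0.388 [0.286 to 0.521], with 74 reads in HRAS and 157 in NICD, against 122 in the control. Both calls made up 11.1% of the list, beside 10.2% of all genes. Against the same control 0 of 18 were called in NICD, beside 6.68% of all genes. The RPS6KA3 identifier named first and KSR2 were called in HRAS against NICD too, at 3.17 [2.85 to 3.54] and 0.254 [0.189 to 0.336]. None of 16 tested genes for the lipid processing and trafficking of Ras was called in any comparison. Beside this stood 10.2% of all genes in HRAS against control, 6.68% in NICD against control and 11.3% in HRAS against NICD. With 16 genes few calls would be reached at such shares. FNTB, a subunit of the farnesyltransferase that anchors Ras to membranes, had a fold of 0.863 [0.779 to 0.956] in HRAS against control and 0.944 [0.839 to 1.06] in NICD against control.

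Of the 7 lists of the Ras pathway, the response genes of ERK had the most calls in HRAS against control. There 10 of 19 were called higher, beside 6.09% of all genes, and 0 lower, with a median log2 ratio of 1.05 beside 0.0030 for all genes. In NICD against control 2 were called higher, FOSL1 and FOSL2, or 10.5% beside 3.56% of all genes, with a median of 0.24 beside 0.034. Between HRAS and NICD, which share the driver, 5 of 19 were called higher, beside 5.15% of all genes, and 0 lower, with a median of 0.48 beside 0.013. The genes DUSP4, DUSP6, egr1, EGR3 and FOSL2, called in HRAS against control, were not among them. The FOS gene, for a subunit of AP-1, had 1865 reads in HRAS and 315 in NICD, against 297 in the control. SPRY4, which encodes a feedback inhibitor, had a fold of 1.798 [1.65 to 1.96] in HRAS against control and was not called. Over the other 6 lists, 9 of 128 tested genes, or 7.03%, were called in HRAS against control, below the 10.2% of all genes. For NICD against control 1 of 128 was called, or 0.781% beside 6.68% of all genes, and in HRAS against NICD 14 of 128, or 10.9% beside 11.3%. The members of these lists were set against all genes as counts only, and no test of their difference from other genes was made. The shares of all genes include genes with few reads, and were not matched to the lists by read count. Endothelial markers moved with the HRAS library, with 11 of 13 called higher and 1 lower in HRAS and 0 higher and 1 lower in NICD against control. Over all genes 6.09% were called higher and 4.14% lower in HRAS against control. The shares in NICD against control were 3.56% and 3.12%. Leukocyte markers had 4 of 8 tested called higher in HRAS and 1 in NICD against control. In HRAS against NICD 4 of the 8 were called higher and 1 lower, beside 5.15% and 6.19% of all genes. Their RPKM summed to 128 in HRAS and 153 in NICD, against 79.1 in the control. Of these sums lyz alone made up 65.7 in HRAS and 114 in NICD, against 57.3 in the control. The part of these cells in the values of rasip1, MRAS, RPS6KA3 and the response genes was not tested.

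**Figure D4:**
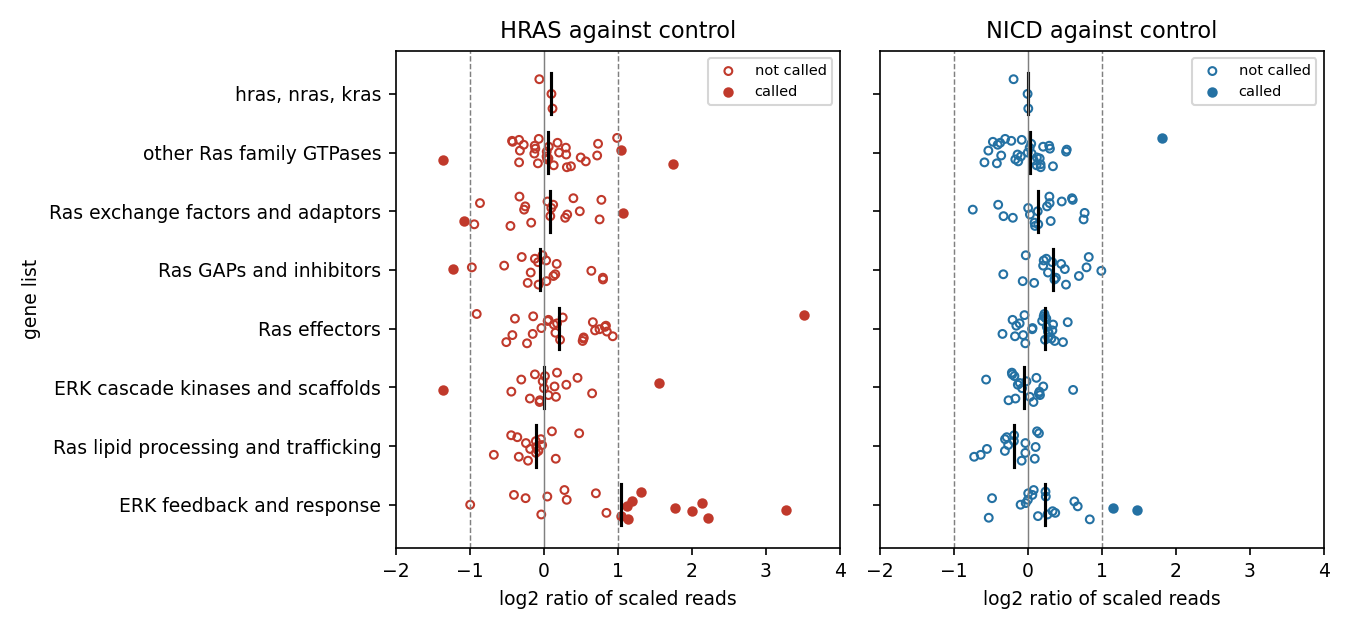
Log2 ratio of scaled corrected reads (x axis) of the Ras genes and of each tested member of 7 lists of the Ras pathway (y axis) in HRAS against control (left) and NICD against control (right). Filled points passed the size rule, open points did not, black bars are list medians and dashed lines mark 2-fold. The Ras genes lie between -0.19 and 0.12, and the response genes of ERK have a median of 1.05 in HRAS and 0.24 in NICD.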

How the data were processed

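Each deposited table lists, per gene, read counts (unique and non-unique), the authors' RPKM and transcript lengths. Per the file headers it also holds corrected total reads, which are an expected count. Per the series' design text, CLC bio Assembly Cell 3.2 and Ensembl release 63 cDNAs of Zv9 were used, and the submitters' processing notes name CASAVA 1.8. The sources used here give neither mapping parameters nor the use of strand. For genes with at least 100 reads, RPKM recalculated from corrected reads over the longest transcript matched the deposited values to 0.518%.

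Ratios were taken on corrected reads after adding 0.5 reads and dividing by library totals times TMM factors (edgeR 4.0.16, R 4.3.3). Intervals of ratios are exact conditional binomial (Clopper-Pearson), those of levels exact Poisson and those of gene-to-gene ratios exact conditional odds ratios (scipy 1.17.1). They cover counting error only, and may be too narrow because the reads carry no molecular identifiers. The calculation of folds and calls was checked on simulated counts.

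Names were found for 19635 identifiers (70.4%). Lower-case names ending in a or b were accepted as copies, capital names only where identical. This restriction was added after values had been seen, because CBLB, FOSB and GOLGA7B had been taken as copies of other genes. No identifier was matched to SOS1 or FNTA. The name table gives HRAS to 2 identifiers, of which 1 is in the deposited tables, and RefSeq names 2 zebrafish copies, hrasa and hrasb. Which copy the deposited identifier is was not settled here. No genome, promoter or protein sequence was used.

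Genes named besides the Ras genes are core pathway members, up to 3 called members of each list and comparison with at least 100 reads, and the 3 genes nearest in pattern. For the ERK response genes, not all that qualify are described. Some genes that the rule selects are not reported here. The members, lists and tests were chosen with earlier results of these data known. Other settings were scaling by upper quartile, by DESeq2 1.42.0 size factors or by total counts, RPKM, unique reads, 5 reads added, and a minimum of 200 or no reads.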

Additional observations from a re-analysis of the deposited data

How the results depend on the processing

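All 54 alternative folds of the Ras genes (other scaling, RPKM, unique reads or 5 reads added) stayed inside the counting interval of the reported fold. The fold of kras in NICD against control ran from 0.857 to 0.885, and that of hras in HRAS against control from 1.06 to 1.09. No paired analysis was possible because each group has 1 library. On unique reads per length the share of hras in the summed level was 15.3% in HRAS, 16.2% in NICD and 14.5% in the control, that of nras 28.4% in HRAS, 28.5% in NICD and 26.5% in the control, and that of kras 56.3% in HRAS, 55.4% in NICD and 59.0% in the control, since unique reads leave out part of the hras reads. With no minimum of reads, genes called higher and lower over the whole table numbered 1933 and 1550 in HRAS against control, 1457 and 1139 in NICD against control, and 1655 and 2095 in HRAS against NICD. With a minimum of 200 reads they numbered 669 and 452 in HRAS against control, 258 and 289 in NICD against control, and 521 and 700 in HRAS against NICD, since the minimum sets which genes are tested. On unique reads 3 Ras GTPase-activating proteins and 2 effectors were called in HRAS against control, and 1 of each in NICD against control, where the lists together had 5 calls, and the cause was not tested. With total counts 1 GTPase-activating protein was called in NICD against control. Other Ras family GTPases in NICD against control had 2 calls with no minimum and 0 with 200 reads, and cascade members in HRAS against control had 1 with 200 reads.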
